A study of Mus musculus with 6 samples.

Results

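The cytosolic ribosomal protein genes encode the proteins that, with ribosomal RNA, build the small 40S and large 60S subunits of the ribosome in the cytoplasm. They were measured in bone cells of C57BL/6 mice, in 3 control libraries and 3 libraries of mice given dexamethasone, a synthetic glucocorticoid used as an anti-inflammatory drug that causes bone loss. Members were protein-coding genes with an Rpl, Rps, Rplp or Rpsa symbol of the standard form in the GENCODE M21 annotation and, averaged over the 6 libraries, 10 normalized counts or more. Of the 29616 genes in the table, 81 were members, all of them among the 17442 genes that reached the same minimum and were tested. They comprised 31 proteins of the 40S subunit, 43 of the 60S subunit, the 3 stalk proteins and 4 paralogs. The paralogs are genes related to another member (Rpl22l1, Rps27l, Rpl7l1 and Rpl36al). The rule uses symbol, gene type and mean count, and no difference between the groups. The symbol rule fitted 84 coding genes of the annotation, of which 82 were in the table used here. Rpl3l, a form typical of striated muscle, had a mean of 2.48 and fell under the minimum, while Rpl36al at 26.9 and Rpl24 at 50.7 were the members nearest to it.

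The methods of the study give a daily dexamethasone dose of 0.08 µg/g over 4 weeks, starting at 8 weeks of age. Its figure legends name saline as the control for bone imaging, while its text calls the controls of the osteocalcin-positive cells non-treated. According to the text of the study, the sequenced cells were sorted as positive for the protein osteocalcin after the marrow had been removed, whereas the labels name the material only as bone cells. Whether a library stands for 1 mouse or for pooled mice is not given in the sources used here, so p-values measure the spread between these libraries, which may be technical. The libraries held 72596611 to 89910728 recovered reads. Of the osteoblast markers, Col1a1, the main collagen chain of bone, had 961923 ± 32793.6 (SD, n = 3) normalized counts in controls and 261192 ± 17851.9 (SD, n = 3) with dexamethasone, while the osteocalcin genes Bglap and Bglap2 had far fewer. Bglap had 107 ± 12.9 and 12.2 ± 2.80, and Bglap2 had 324 ± 21.0 and 31.3 ± 2.17 (SD, n = 3). The genes are near-identical copies, so the division of reads between them is uncertain. Normalized counts are reads divided by a size factor of the library. In bulk RNA of this kind, fewer cells of a type and less RNA per cell cannot be told apart.

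Ribosomal protein mRNAs are among the most abundant of any growing cell, and the subunits need their proteins in near equal numbers. Most begin with a C followed by a run of pyrimidines at the transcription start, the 5′ terminal oligopyrimidine (TOP) tract, through which mTOR signalling and the protein Larp1 set their translation. Mature osteoblasts secrete large amounts of collagen and depend on a high capacity for translation.

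The starts of genes that recur in the results are shown to make the tract visible. Each line holds 45 bases, from 30 before to 15 from the annotated start onwards, of the coding strand in the RefSeq annotation of GRCm38.p6, with the longest run of C and at least 4 further pyrimidines that begins within 20 bases of the start in capitals. Rps27, Rps26 and Rps6 fell with dexamethasone, Rplp2 is a stalk protein, Rpl22l1 is a paralog, and Rps2 and Rpl7l1 had higher counts. The windows are chr3:90213634-90213678 (minus strand) for Rps27, chr10:128626492-128626536 (minus) for Rps26, chr4:86857353-86857397 (minus) for Rps6, chr7:141447621-141447665 (plus) for Rplp2, chr3:28805478-28805522 (plus) for Rpl22l1, chr17:24720033-24720077 (plus) for Rps2 and chr17:46782642-46782686 (minus) for Rpl7l1.
Rps27: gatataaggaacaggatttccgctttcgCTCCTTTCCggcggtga
Rps26: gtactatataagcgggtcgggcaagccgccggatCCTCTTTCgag
Rps6: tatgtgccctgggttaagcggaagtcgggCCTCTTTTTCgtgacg
Rplp2: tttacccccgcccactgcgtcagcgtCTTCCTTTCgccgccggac
Rpl22l1: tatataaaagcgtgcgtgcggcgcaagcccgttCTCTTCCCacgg
Rps2: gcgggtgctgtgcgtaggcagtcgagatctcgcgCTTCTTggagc
Rpl7l1: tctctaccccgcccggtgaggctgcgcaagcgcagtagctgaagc
A tract lay within these letters for each of the genes shown except Rpl7l1. Members that fell were found both with and without a tract in their window, and Rpl10 and Rpsa were among those without. A run of this kind began within 20 bases of the annotated start in 52.2% of all genes with a promoter window. Where transcription starts in these cells was not measured, so a member without a run here may still have a TOP tract.

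Most cytosolic ribosomal protein genes had modestly lower counts with dexamethasone. At a limma adjusted p under 0.05, 77 of the 81 members differed between the groups, where 72.5% of all tested genes did. Of the members, 75 (92.6%) were lower, against 35.2% of all tested genes. Only 2 members, Rps2 and Rpl7l1, were higher, against 37.2% of all tested genes. The values of the 3 dexamethasone libraries lay wholly below those of the 3 controls for 75 members and wholly above for 3, where 36.4% and 38.4% of all tested genes did so. The median log2 fold change of the members was -0.44, a ratio of 0.735, with the middle of the distribution between -0.55 and -0.33. Over all tested genes the median was 0.00, and over the 3702 other coding genes with a mean of at least 5000 it was 0.16. The range ran from -0.81 for Rps27 to 0.38 for Rpl36al. The cut-off of the study for differential expression, an adjusted p under 0.05 with a log2 fold change of at least 1, was met by 0 members and by 22.3% of all tested genes, 11.7% higher and 10.6% lower. limma, edgeR and DESeq2 each gave 0, while 77 members had an unadjusted limma p under 0.05. The difference was widespread among the members and small for each gene.

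**Figure D1:**
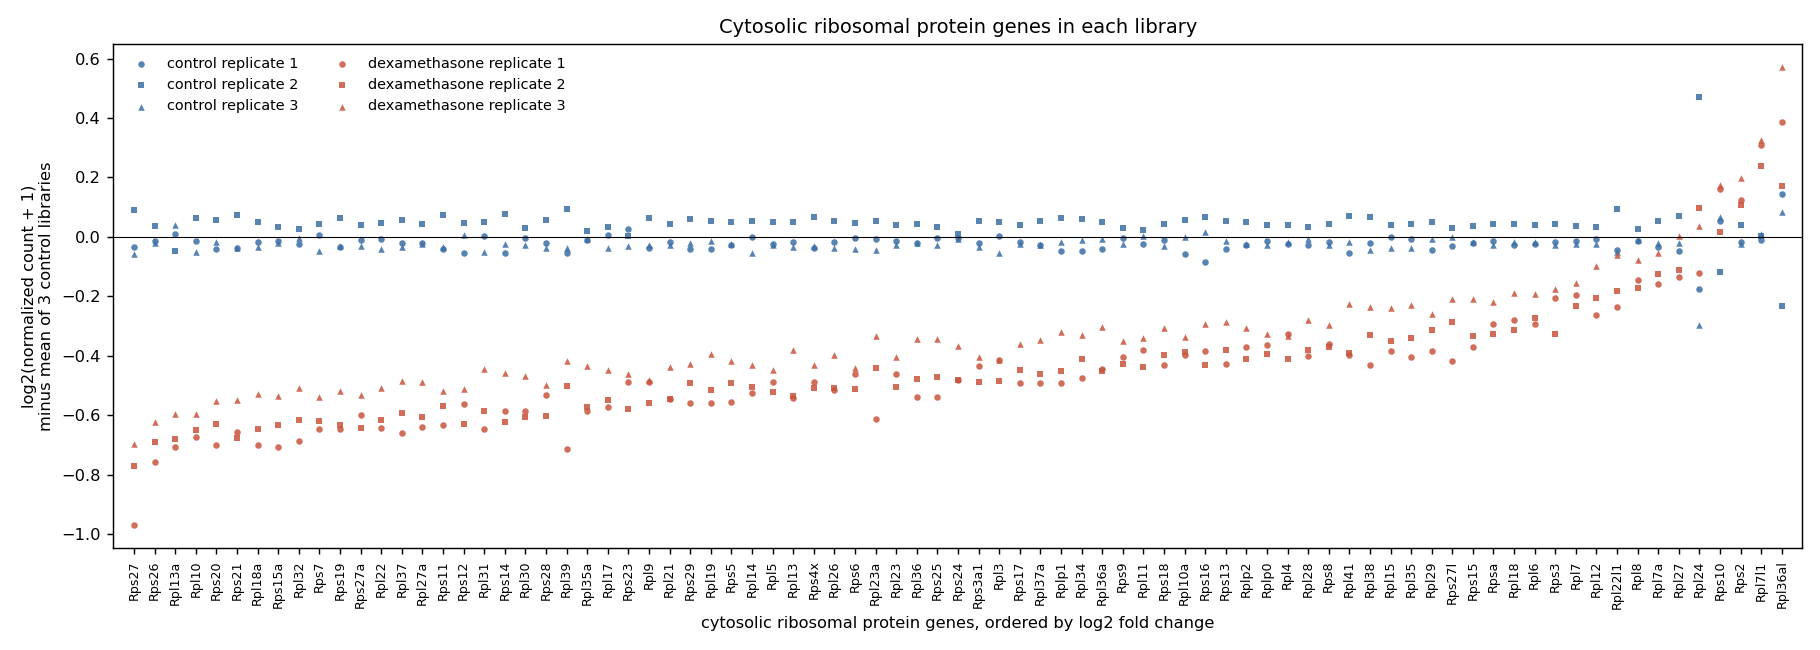
Each column is a cytosolic ribosomal protein gene, ordered by log2 fold change, and each point is a library; the y axis gives log2(normalized count + 1) minus the mean of the 3 controls. The dexamethasone points lie below all control points for 75 of the 81 genes, and dexamethasone replicate 3 is the highest of its group for 78.

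The members lay lower in each treated library, and least so in replicate 3. Their median deviation from the control mean on the log2 scale was -0.02, 0.05 and -0.03 in the controls (replicates 1 to 3). It was -0.49, -0.48 and -0.36 in the dexamethasone-treated libraries, in the same order. Dexamethasone replicate 3 was the highest of its group for 78 members, and control replicate 2 was the highest of the controls for 76. Without dexamethasone replicate 3 the median log2 fold change was -0.48, with 76 members lower. When all libraries were scaled to the same total without the members, the median of all genes moved by -0.13 and that of the members was -0.58, and 40.8% of all calls were higher in place of 51.4%.

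As a share of all reads, which does not depend on the size factors, the members took 4.91%, 4.93% and 4.81% in the controls. In the dexamethasone-treated group they took 3.27%, 3.41% and 3.56%. The means were 4.88% ± 0.0676 (SD, n = 3) and 3.41% ± 0.142 (SD, n = 3), a difference of -1.47 percentage points and a ratio of 0.699. The groups did not overlap. Proteins of the 40S subunit fell from 2.13% to 1.48% of reads, those of the 60S subunit from 2.36% to 1.65%, and the stalk proteins from 0.367% to 0.261%. The corresponding ratios were 0.696, 0.698 and 0.712.

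**Figure D2:**
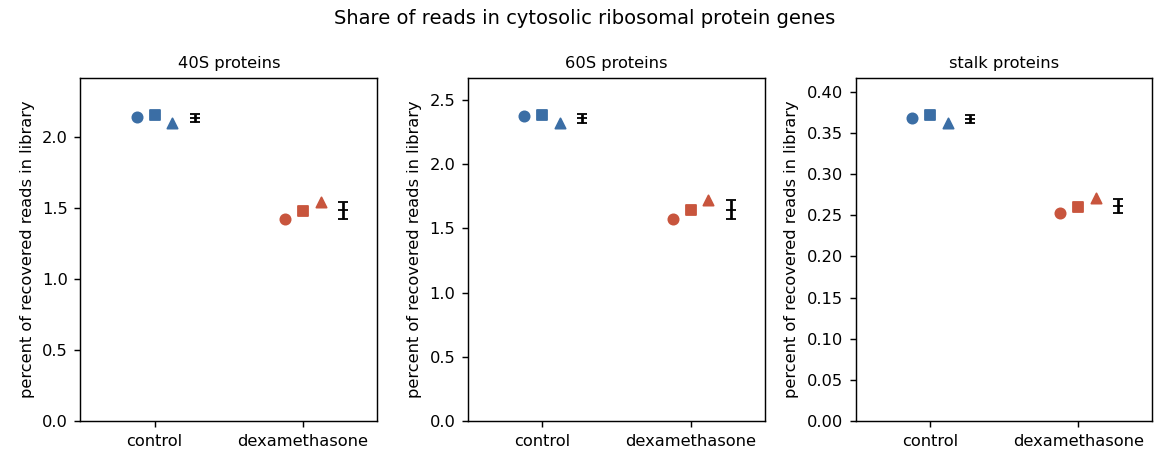
The y axes give the percent of recovered reads in each library that fell in genes of 40S proteins, 60S proteins and stalk proteins; points are libraries, and black bars are the mean ± SD of 3 libraries. Each class is lower in every dexamethasone library, and the mean of the 40S class goes from 2.13% to 1.48%.

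In the 40S subunit, 29 of 31 members were lower, with a median log2 fold change of -0.48. The lowest was Rps27, a protein with a zinc finger. Its normalized counts were 22718, 24757 and 22308 in the controls and 11872, 13606 and 14339 with dexamethasone. All dexamethasone libraries lay well below the controls, and replicate 1 was the lowest. This was a change of -0.81 on the log2 scale, with a standard error of 0.0511 and a limma adjusted p of 3.48e-13. Rps26, which lies near the mRNA exit channel, had 53081, 54959 and 52823 against 31725, 33244 and 34824. The groups did not overlap, at -0.69 (standard error 0.0397, limma adjusted p = 6.00e-14). Rps20, one of the 3 members with the most reads per kilobase of coding sequence, had 84935, 90867 and 86207 against 53717, 56432 and 59486. The groups were again apart, at -0.63 (limma adjusted p = 2.76e-12).

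Rps19, Rps6 and Rpsa were chosen for their roles and Rps12 for its level per length. Rps19, the gene most often mutated in Diamond-Blackfan anemia, had 33667, 36051 and 33762 normalized counts in controls and 22037, 22232 and 24056 with dexamethasone. Every dexamethasone library was below every control, at -0.60 on the log2 scale (limma adjusted p = 1.30e-12). Rps6, the target of the S6 kinases, had 32096, 33223 and 31307 against 23385, 22569 and 23706. These groups also stood apart, at -0.47 (limma adjusted p = 2.18e-11). Rps12 fell by 0.57 on the log2 scale. Rpsa, which also serves as a laminin receptor, fell less, by 0.28 (limma adjusted p = 3.54e-06).

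The exception among abundant 40S members was Rps2, which lies at the mRNA entry side of the subunit. Its normalized counts were 136336, 141607 and 135599 in the controls and 150240, 148386 and 158172 with dexamethasone. The groups did not overlap, and dexamethasone replicate 3 was the highest. The change of 0.14 on the log2 scale (standard error 0.0459, adjusted p = 0.00751 by limma) lost its call when all libraries were scaled to the same total, at 0.03 (limma adjusted p = 0.406). It also lost it without control replicate 3 (0.13, limma adjusted p = 0.0621) and without dexamethasone replicate 3 (0.12, limma adjusted p = 0.0664). With the replicate number as a block the limma adjusted p was 0.0859. Of the 75-base windows of its coding sequence, 76.1% also occur in other annotated genes. Such sharing was not particular to Rps2, and for Rps27, Rpl10 and Rps6 it was 100%. Of the 65 members with at least 50% of windows shared, 60 were lower and 1 was higher. Rps10 had 382, 339 and 385 against 411, 372 and 415, with overlapping groups and a difference of 0.12 on the log2 scale (limma adjusted p = 0.215), which ranged from -0.02 to 0.19 over the alternatives tried (adjusted p from 0.0366 to 0.980). Another gene on the same strand overlaps 70.8% of its exon bases, so its count is uncertain.

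In the 60S subunit, 41 of 43 members were lower, with a median log2 fold change of -0.45. Rpl10, which completes the late maturation of the subunit, had 92666, 97787 and 90353 normalized counts in controls and 58688, 59614 and 61912 with dexamethasone. The groups were far apart, at -0.64 (standard error 0.0421, limma adjusted p = 8.80e-13). Rpl13a had 1223, 1174 and 1249 against 744, 758 and 803, also without overlap, at -0.66 (limma adjusted p = 1.14e-10). Same-strand genes cover 59.3% of its exon bases, so this low count is uncertain.

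Rpl5 and Rpl11 form with 5S RNA the particle that binds Mdm2 when ribosome assembly fails. Rpl5 had 54272, 57050 and 54103 normalized counts against 39294, 38378 and 40453 with dexamethasone. Rpl11 had 32268, 33318 and 32835 against 25194, 24236 and 25923. Neither gene's groups overlapped, and they differed by -0.49 (limma adjusted p = 3.26e-11) and -0.39 (limma adjusted p = 9.16e-10) on the log2 scale. Rpl35a, another Diamond-Blackfan gene, fell by 0.53 on the log2 scale (limma adjusted p = 1.01e-11). Rpl41 had the shortest coding sequence, at 75 bases, and the highest level per coding length, which also counts reads outside the coding sequence. It fell by 0.34 on the log2 scale (limma adjusted p = 2.59e-07), but stood at 0.20 when trends with coding length and GC content were removed. Rpl27 and Rpl24 were the 60S members not called. Rpl27 had 18425, 19981 and 18752 against 17360, 17607 and 19096, with overlapping groups and a difference of -0.08 (limma adjusted p = 0.0776) that ranged from -0.29 to 0.03 over the alternatives tried (adjusted p from 6.56e-07 to 0.513). Rpl24 had 40 to 69 normalized counts in controls and 46 to 53 with dexamethasone, with a difference between -0.14 and 0.24 over the same alternatives, and another gene covers 71.5% of its exon bases on the same strand.

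The stalk proteins Rplp0, Rplp1 and Rplp2 recruit elongation factors to the large subunit. Rplp0 had 158715, 165067 and 157483 normalized counts in the controls and 124791, 122010 and 127997 with dexamethasone, a fall of 0.36 on the log2 scale (limma adjusted p = 1.15e-07). Rplp1 and Rplp2 fell by 0.42 and 0.36 (limma adjusted p = 1.11e-08 and 8.58e-09). For each of the 3 genes every dexamethasone library lay below every control.

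The 4 paralogs differed among themselves, with 2 lower, 1 higher and 0.07 as the median on the log2 scale. Rpl7l1, a nucleolar relative of Rpl7, had 8084, 8164 and 8197 normalized counts in controls and 10101, 9616 and 10203 with dexamethasone. The groups did not overlap, at 0.29 (standard error 0.0352, limma adjusted p = 6.70e-08), and only 7.38% of its windows are shared with other genes. Rpl7 itself fell by 0.19. Rps27l, known as a p53 target, fell by 0.30 while Rps27 fell by 0.81. Rpl22l1 fell by 0.16 (limma adjusted p = 0.00348), a call lost in limma without a mean trend (adjusted p = 0.0834), and Rpl22 fell by 0.59. Rpl36al had 20 to 28 reads in controls and 24 to 32 with dexamethasone and was not called (0.38, limma adjusted p = 0.212). Another gene on the same strand overlaps 63.1% of its exon bases, and 100% of its windows are shared, so its count is uncertain.

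Within a library the ratio of a paralog to its counterpart does not depend on the size factors. Reads of the whole gene, with its untranslated parts, were divided by coding length alone. The percentages therefore depend on the lengths of both genes, while the change between groups does not. Per kilobase of coding sequence, Rpl22l1 stood at 22.9% of Rpl22 in controls and 30.8% with dexamethasone. Rps27l went from 32.4% to 46.0% of Rps27, and Rpl7l1 from 11.1% to 15.6% of Rpl7. On the log2 scale the ratios rose by 0.43, 0.51 and 0.49, against SDs of 0.0191 to 0.0590 within groups. For Rpl36al the rise of 0.79 rested on few reads and an uncertain count. For all 4 pairs the dexamethasone libraries lay above the controls. The ratios are given as values, with no test.

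**Figure D3:**
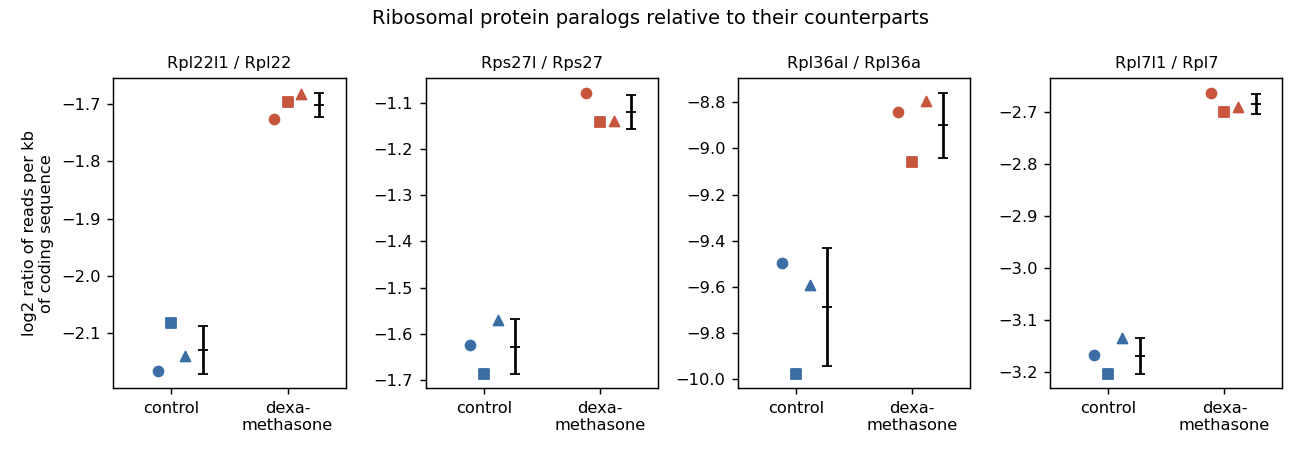
The y axis of each panel gives the log2 ratio of reads per kilobase of coding sequence of a paralog to its counterpart; points are libraries and black bars the mean ± SD of 3 libraries, and the axes do not start at 0. The dexamethasone libraries lie above the controls in each panel, from -2.13 to -1.70 on average for Rpl22l1.

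Among the 77 members with a mean of at least 1000, the log2 fold change varied weakly with coding length (Spearman's rho 0.32 across genes, which are not independent replicates) and hardly with the mean count (0.04). The 25 members with the shortest coding sequence, of 75 to 390 bases, had a median of -0.49. The 25 with the longest, of 582 to 1257 bases, had one of -0.37. Other coding genes of at most 600 bases with a mean of at least 5000 had a median of 0.14 over 326 genes. Ribosomal protein genes have many processed pseudogenes, and 65 members shared at least 50% of their windows with other genes. The 16 members under that limit had a median of -0.38, with 15 lower and 1 higher.

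**Figure D4:**
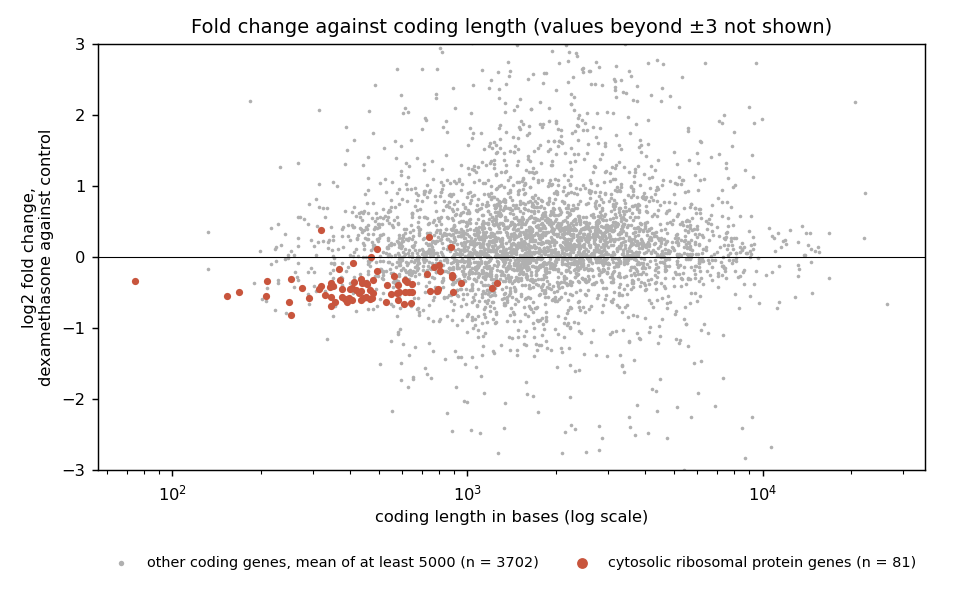
The x axis gives coding length in bases on a log scale and the y axis the log2 fold change of dexamethasone against control; red points are the 81 cytosolic ribosomal protein genes and grey points 3702 other coding genes with a mean of at least 5000, of which 40 lie outside the axis range. Most red points lie below 0 at every length, around their median of -0.44.

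The RefSeq promoter table held a window for 61 of the 81 members, from 250 bases before to 50 after the annotated start. A gene with several annotated starts was counted if any of its windows held the sequence. The background genes were not limited to those tested here. Searched on both strands, CCGGAAG, a form of the ETS site, was in 41.0% of members and 9.93% of all 27025 genes. GGGCGG, the GC box, was in 63.9% and 38.2%. The palindromic CGCG element of housekeeping promoters was in 9.84% and 0.525%. AAGATGG, a form of the YY1 site, was in 16.4% and 7.28%, TATAAA in 11.5% and 15.7%, and CACGTG, the E-box, in 9.84% and 8.09%. ACANNNTGT, the core of a glucocorticoid response element, was in 1.64% and 7.90%. C with at least 4 further pyrimidines on the coding strand lay exactly at the annotated start in 21.3% and 3.01%, and began within 20 bases of it in 78.7% and 52.2%. For members with a tract beginning within 20 bases the median change was -0.40 on the log2 scale, and for those without it -0.45.

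Other genes of translation are described as lists by their counts and medians. Rack1, a scaffold on the 40S head, went from 124209 ± 4305.8 to 90803 ± 2241.9 normalized counts (SD, n = 3), at -0.45 (limma adjusted p = 1.28e-09). The list of elongation and poly(A) factors of the TOP class also held Naca, Btf3, Tpt1 and the initiation factors Eif3e, Eif3f, Eif3h, Eif3l and Eif4b. Of its 14 genes, 10 were lower and 2 higher, with a median of -0.25. Over all tested genes 35.2% were lower and 37.2% higher, and over other coding genes with a mean of at least 5000 these shares were 29.4% and 56.2%, with a median of 0.16. Eif3f fell most, by 0.83, and Eif3e, Eif4b and Eif3h fell by 0.51, 0.46 and 0.30, while Eif3l was not called. Eef2, which moves the ribosome along the mRNA, fell by 0.73 and Eef1a1, which delivers transfer RNA, fell by 0.54. Pabpc1, the poly(A)-binding protein, rose by 0.52.

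For the lists that follow, the same shares over all tested genes (37.2% higher) and over other abundant coding genes (56.2% higher) are the background. Of 35 ribosome biogenesis genes, 28 were higher and 3 lower, with a median log2 fold change of 0.38. Ncl, the nucleolar protein nucleolin, had 60834, 60901 and 60218 normalized counts in controls and 109522, 99380 and 102300 with dexamethasone. The groups were far apart, at 0.77 (standard error 0.0426, limma adjusted p = 2.52e-14). Dkc1, which modifies ribosomal RNA, rose by 1.11, Polr1a, the largest subunit of RNA polymerase I, by 0.61 and Npm1 by 0.39. Polr1c fell by 0.39. Of 25 initiation factors outside the TOP class list, 19 were higher and 3 lower, with a median of 0.31. Eif3b and Eif4g1 rose by 0.79 and 0.67, and Eif4a2 fell by 0.63. The 77 mitochondrial ribosomal proteins had 37 higher and 18 lower, with a median of 0.09, a share between these backgrounds.

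**Figure D5:**
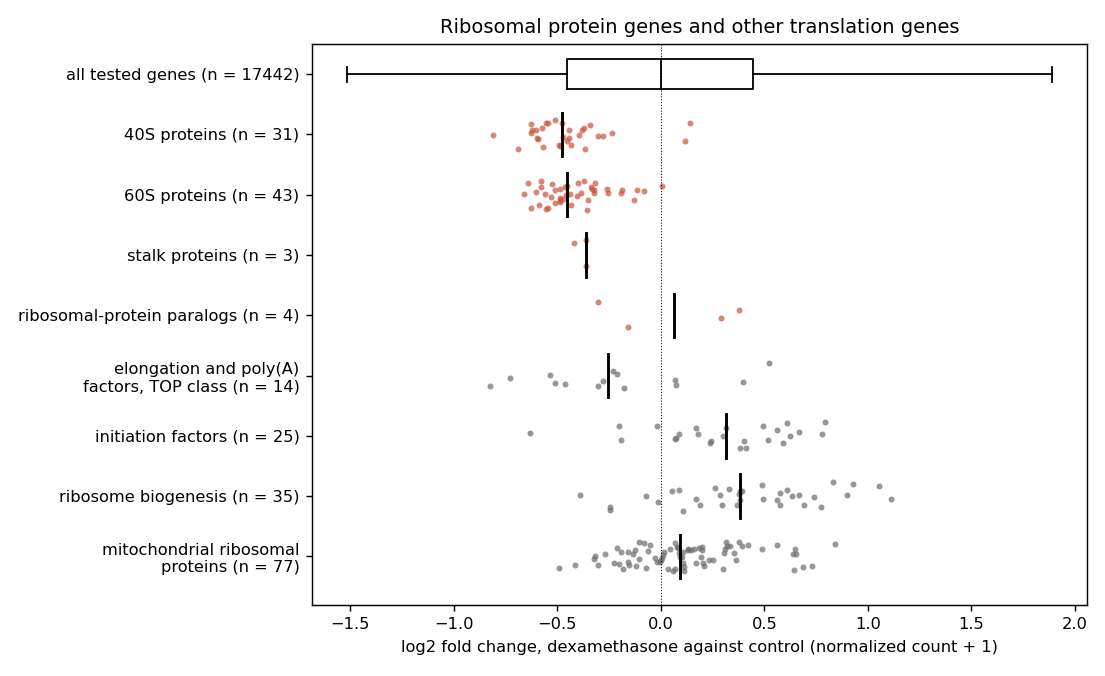
The x axis gives the log2 fold change of dexamethasone against control on log2(normalized count + 1); points are genes, black lines list medians, and the box gives the median and quartiles of all 17442 tested genes with whiskers at the 5th and 95th percentiles. The 40S and 60S proteins lie mostly below 0 with medians of -0.48 and -0.45, and ribosome biogenesis genes mostly above it with a median of 0.38.

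Of 27 genes of mTOR signalling and TOP control, 14 were higher and 10 lower, with a median log2 fold change of 0.09, where 37.2% and 35.2% of all tested genes were. Inhibitors of the pathway were found among the higher and the lower genes. Deptor, an inhibitor of mTOR, rose from 3082 ± 87.8 to 7627 ± 477 normalized counts (SD, n = 3), at 1.31 (limma adjusted p = 4.35e-19). Eif4ebp2, a repressor of cap-dependent initiation, rose by 1.00, its relative Eif4ebp1 by 1.06, and Larp1 by 0.11 (limma adjusted p = 0.0124). Other inhibitors fell, with log2 fold changes of -0.81 for Ddit4, -0.89 for Sesn2 and -0.77 for Castor1. Mtor itself and its partners Rptor and Mlst8 rose by 0.28, 0.47 and 0.34, and its activator Rheb by 0.20. The S6 kinase genes Rps6kb1 and Rps6kb2 fell by 0.16 and 0.19. Mxd4, a MAX partner that opposes Myc, fell from 18654 ± 655 to 5235 ± 244 (SD, n = 3), at -1.83. Myc itself and Max also fell, by 0.16 and 0.15. In the p53 axis, Trp53 rose by 0.66 and Mdm2 by 0.17, while the p53 target Cdkn1a fell by 0.73.

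Markers of several cell types differed between the groups, where 37.2% of all tested genes were higher and 35.2% lower. All 7 osteoblast markers were lower, their summed normalized counts lying between 952149 and 1018400 in controls and between 255071 and 289772 with dexamethasone. Nearly all of this sum was Col1a1 in both groups. Of 3 osteocyte markers tested, 2 were higher, and the sum was 229 to 254 in controls and 5613 to 6276 with dexamethasone. Nearly all of that rise was Dmp1, a matrix protein, at 38.5 ± 2.66 and 5639 ± 326 (SD, n = 3). Phex went from 185 ± 22.0 to 278 ± 8.93, and Mepe had 18.5 ± 7.89 and 10.03 ± 2.39 and was not called.

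The pan-hematopoietic sum was 92.3 to 129 in controls and 775 to 823 with dexamethasone, with 2 of 4 tested markers higher and 2 lower. Its rise came from Cd53 (15.7 ± 3.99 to 283 ± 24.8) and Itgb2 (54.6 ± 10.2 to 503 ± 26.2). Laptm5 fell from 19.2 ± 4.53 to 6.41 ± 2.95 and Coro1a from 20.4 ± 3.59 to 6.79 ± 4.95, and Ptprc, the defining marker CD45, was at 2.48 ± 0.634 and 4.71 ± 1.61, under the minimum for testing. In the macrophage and osteoclast list, 1 of 3 was higher and 2 were lower, with a sum of 13087 to 13688 and then 8706 to 9270. Most of this sum was Ctsk in both groups. Ctsk, the collagen-cleaving protease of osteoclasts, fell from 13146 ± 309 to 8353 ± 222, Csf1r fell from 46.0 ± 7.49 to 28.3 ± 0.358, and Cd68 rose from 173 ± 14.1 to 596 ± 71.3.

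Of 3 neutrophil markers tested, 1 was higher, S100a8 (154 ± 7.83 to 283 ± 26.5), and the sum was 748 to 772 and then 863 to 1014. The chondrocyte collagen Col2a1 rose from 1517 ± 23.4 to 5687 ± 428 (limma adjusted p = 1.15e-21), while Acan was at 1.92 ± 1.96 and 2.89 ± 3.17. The endothelial sum was 26.6 to 30.8 in controls and 25.6 to 44.7 with dexamethasone. Of 2 endothelial markers tested, Pecam1 was higher, at a log2 fold change of 0.74 with adjusted p = 0.0419 by limma, Tek was not called, and Cdh5 had no more than 3 reads in every library. Skeletal muscle markers summed to 54.5 to 72.4 and 36.05 to 53.4, with 1 of 2 tested lower. Of the erythroid markers, the globin genes Hba-a1 and Hbb-bt had no more than 3 reads in any library. B cell and adipocyte markers had none tested, with sums of at most 9.18 and 8.26. These errors are SDs over 3 libraries. The part of these cell types in the ribosomal protein result was not tested.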

How the data were processed

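RNA of 6 mouse bone cell samples was sequenced from stranded mRNA libraries. The authors used STAR (2.7.10a, with GRCm39 named in the submitters' processing notes) for alignment and gene counts and deposited the counts divided by DESeq2 (1.36.0) size factors, a normalized signal in units of normalized counts. The annotation release and the strand column counted are not given in the sources used here. Dividing by the worth of 1 read turned 100% of deposited values into whole reads (tolerance 0.001). Genes with a mean of at least 10 were tested with limma (3.58.1, with a mean trend) on log2(normalized count + 1), with Benjamini-Hochberg adjustment over all 17442 genes. The added 1 makes fold changes of low genes smaller. edgeR (4.0.16) and DESeq2 (1.42.0) on recovered reads, other scalings, filters and pseudocounts, a replicate block and leaving out each library were alternatives. The code was tested on simulated data. Symbols, coding lengths and overlaps came from GENCODE M21, on GRCm38, which named 28103 of 29616 genes; promoter windows came from RefSeq on GRCm38.p6. No coordinates were converted.

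Members and lists were chosen with earlier results of these data known. Named members were the 5 largest called decreases and the called increases whose groups were apart and whose mean reached 100, the 3 with the highest level per length, the paralog pairs, and Rplp0, Rplp1, Rplp2, Rpsa, Rpl5, Rpl11, Rps6, Rps19 and Rpl35a. In each related list the rule took up to 3 genes of highest mean and the largest change each way. Rps10, Rpl24 and Rpl27, the cell markers, and Ddit4, Sesn2, Castor1, Mtor, Rptor, Mlst8 and Rheb were named after their values were seen. So were Eif4ebp1, Rps6kb1, Rps6kb2, Myc, Max, Eif3e, Eif3h, Eif3l and Eif4b. Replicate libraries differed by more than sampling noise (chi-square per degree of freedom 3.56 to 28.9). Protein sequences were not used here. A related list is not reported here.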

Additional observations from a re-analysis of the deposited data

How the results depend on the processing

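Over 22 alternatives the count of members lower with dexamethasone stayed within 1.5 times of 75, except that it was 15 of 16 where only members with under 50% of windows shared were counted, and 0 members passed the fold cut-off in each. The count of higher members went from 2 to 1 at the same total, at the same total without members, with the replicate block and among the members with few shared windows, and to 4 (Rpl41, Rps2, Rps10 and Rpl7l1) with length and GC trends removed, an alternative chosen after seeing the data. Leaving out each library gave 1 to 2, and 1 without control replicate 3 or dexamethasone replicate 3. The median log2 fold change of -0.44 became -0.56 at the same total, -0.58 at the same total without members, -0.53 after quantile normalization, -0.35 with the trends removed and -0.38 among members with few shared windows. The first 3 scalings moved the median of all genes by -0.11, -0.13 and -0.07, and the share of all calls that were higher went from 51.4% to 42.5%, 40.8% and 44.0%. Rpl41 reversed to 0.20 (limma adjusted p = 6.28e-06) with the trends removed; the cause was not tested. Of 479 comparisons over 24 named members, 472 kept their direction and call, and 71 members were lower and called in every setting. Deviations of same-numbered libraries had correlations of -0.10, -0.10 and -0.02. These values show no strong effect shared by replicate number, but cannot tell whether the samples were paired. The replicate block gave 73 lower and 1 higher members. At this depth, members of few reads (Rpl24, Rpl36al) were the least precise, and intervals of reads cover counting error only.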

Other observations

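Genes of ribosome rescue and quality control act on stalled ribosomes. Of 7 tested, 4 were higher and 2 lower, where 37.2% of all tested genes and 56.2% of other coding genes with a mean of at least 5000 were higher, around a median change of 0.25 on the log2 scale. Eif2ak4, the kinase that senses uncharged transfer RNA, went from 3825 ± 108 to 5468 ± 229 normalized counts (SD, n = 3), at 0.52 (limma adjusted p = 1.82e-11). Ltn1, the ligase that marks stalled chains for decay, rose by 0.24, and Hbs1l, which splits stalled ribosomes with Pelo, fell by 0.36. Among mitochondrial ribosomal proteins, Mrpl18 had the largest increase (0.84, from 1883 ± 42.7 to 3378 ± 30.1 normalized counts; SD, n = 3) and Mrps28 the largest decrease (-0.49).

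The 85 tested genes named as ribosomal protein pseudogenes had a median log2 fold change of -0.39, with 37 lower and 2 higher. These were 43.5% and 2.35%, where 35.2% and 37.2% of all tested genes were lower and higher. Members share 75-base windows with such genes, so these counts may not be independent of those of the members. Their summed mean was 12569 normalized counts, against 3334920 for the members.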
